A study of Rattus norvegicus with 6 samples.

Results

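The genes described here are 9 genes of matricellular and adhesive matrix proteins: the thrombospondin genes Thbs1, Thbs2, Thbs3 and Thbs4, the tenascin C gene Tnc, the periostin gene Postn, Sparc, the fibronectin gene Fn1 and Tgfbi. They were chosen by symbol, as 9 of the 20675 rat genes in the deposited table, and all 9 were found and tested. RNA was sequenced from primary rat cells of the temporomandibular joint (TMJ) disc, the fibrous pad between the bones of the jaw joint. In 3 libraries the cells had received the agonist GSK101 of the calcium-permeable channel TRPV4 for 24 h, and in 3 control libraries DMSO for the same 24 h. The labels give no strain, age, sex, dose or animal of origin, and a replicate may be a separate animal, culture or extraction, so p-values measure only the spread between these samples.

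Matricellular proteins are secreted into the extracellular matrix, where they act less as building material than as modulators. They bind collagens, growth factors, proteases and cell surface receptors, and change how firmly cells adhere. In fibrous joint tissue and tendon several of them are known to respond to mechanical load and injury. Fibronectin is a structural adhesive glycoprotein whose fibrils form a scaffold for many of the others, and Tgfbi and periostin are related adhesion proteins with fasciclin domains that bind collagens and integrins.

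The libraries held 43061102 to 45705238 counted reads, fewest in GSK101 replicate 3. The 9 genes together took 2.08% to 2.46% of the counted reads, with overlap between the groups. Fibroblast markers fitted the label, with Col3a1 at 3521 ± 227 and Vim at 4911 ± 127 RPKM (reads per kilobase of gene relative to all counted reads of the library; SD, n = 3) in the controls. Col2a1, the cartilage collagen gene, was near 0, at 0.0164 RPKM in both groups. Other cartilage genes of the same list were present: Acan, at 33.6 RPKM in the controls and 31.9 with GSK101, and Sox9, at 2.80 and 2.46. Neither passed the test. Among macrophage markers Ptprc, at 0.493 RPKM in the controls and 0.419 with GSK101, and Csf1r, at 0.308 and 0.299, lay below the filter, while Cd68, at 6.01 and 5.83, Tyrobp, at 1.42 and 1.18, and Aif1, at 1.06 and 1.09, were above it and did not pass the test. The endothelial marker Cdh5 was at 0.0332 and 0.00769 RPKM. The means of pericyte and smooth muscle markers did not all move the same way. Over the 8 listed genes the summed level was 427 to 444 RPKM in controls and 277 to 304 after GSK101. Of 5 tested 3 fell and 0 rose, where 11.9% of all tested genes fell and 20.1% rose. Most of that sum was Myh11, and Rgs5, Kcnj8 and Abcc9 lay below 0.5 RPKM. The means of Cspg4, 10.04 RPKM in controls and 11.56 after GSK101, and of Des, 0.647 and 0.869, went up without passing the test. The genes that fell were Myh11, Mcam and Notch3. The part of these cells in the changes described next was not tested. In bulk RNA, fewer cells of a type and less RNA per cell cannot be told apart.

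The 9 genes did not move as a group. In the limma test across all genes Tgfbi, Thbs4 and Fn1 were higher with GSK101, Sparc and Tnc were lower, and Thbs1, Thbs2, Thbs3 and Postn did not pass an adjusted p of 0.05. That is 5 of 9 called, where 31.9% of the 12801 tested genes were called, with 3 higher (20.1% of all tested genes) and 2 lower (11.9%). In 6 of the 9 genes the groups were fully apart, as in 47.3% of all tested genes. The median log2 fold change of the 9 was 0.04, beside 0.03 over all tested genes, and the median absolute change was 0.21, beside 0.16. Among the 5 calls the largest change, of Tgfbi, was 0.65 on the log2(RPKM + 0.5) scale, and 4.62% of tested genes changed more. With 9 genes these shares are descriptions.

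**Figure D1:**
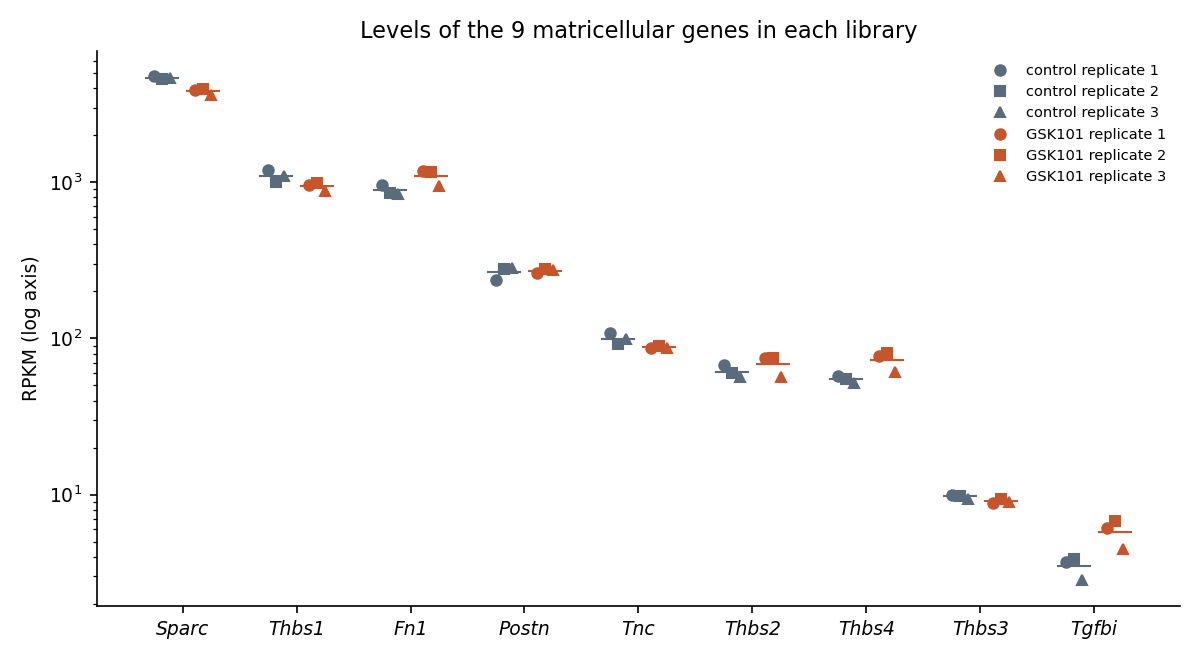
RPKM (log axis) of the 9 genes in each of the 6 libraries, grey for control and orange for GSK101, with a marker shape per replicate number and a bar at each group's mean. Levels run from Sparc at about 4676 RPKM to Tgfbi at about 3.47 RPKM in the controls, and the changes with GSK101 are small beside that range.

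Sparc was among the most abundant transcripts of the cells, in place 9 of the tested genes in the controls and place 10 with GSK101. In the controls the order by RPKM, a level per gene length, was Sparc, Thbs1, Fn1, Postn, Tnc, Thbs2, Thbs4, Thbs3 and Tgfbi, and only the neighbours Thbs2 and Thbs4 overlapped. With GSK101 Fn1 stood before Thbs1 and Thbs4 before Thbs2, and within both pairs the libraries overlapped.

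Thbs1 and Thbs2 encode the thrombospondins that form trimers and carry type 1 repeats, and CD36 and CD47 are among their receptors; both are known inhibitors of blood vessel growth, and thrombospondin 1 can activate latent TGF-beta. Thbs1 maps to chromosome 3, 109862117 to 109873466, plus strand (Rnor_6.0, as are all positions not marked otherwise). Its level was 1198, 997 and 1096 RPKM in control replicates 1, 2 and 3 and 959, 993 and 882 with GSK101. Every GSK101 library lay under every control library, but control replicate 2 and GSK101 replicate 2 were almost level. The log2 fold change was -0.21 (SE 0.07, 95% interval -0.39 to -0.04), and with adjusted p = 0.0636 Thbs1 did not pass. It did pass as lower with median-ratio scaling (adjusted p = 0.0368), with the gene length trend removed (0.0110), with limma-voom (0.0140) and without control replicate 2 (0.0309), and its adjusted p over all 18 alternatives ran from 0.0110 to 0.189.

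Thbs2, at chromosome 1, 56653938 to 56683731, minus strand, was measured at 67.2, 60.0 and 56.6 RPKM in the controls and 74.7, 74.5 and 56.8 with GSK101. GSK101 replicates 1 and 2 stood above all controls, and replicate 3 lay among them. The log2 fold change was 0.16 (SE 0.11, 95% interval -0.10 to 0.41, adjusted p = 0.332 in limma). Without GSK101 replicate 3 it was 0.29 with adjusted p = 0.0319, and after removal of the gene length trend it was 0.01.

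Thbs3 and Thbs4 encode thrombospondins that assemble as pentamers and lack the type 1 repeats; thrombospondin 4 is known from tendon and muscle, where it takes part in the order of collagen fibrils and in tissue repair. Thbs4, at chromosome 2, 22343727 to 22385855, minus strand, rose 1.33-fold. Its level was 57.6, 55.4 and 51.7 RPKM in the controls and 77.7, 80.8 and 61.0 with GSK101. All GSK101 libraries were above all controls, with replicate 3 closest to them. The log2 fold change was 0.40 (SE 0.10, limma adjusted p = 0.0198). The call was lost with no filter on low values (adjusted p = 0.0560) and without control replicate 2 or 3 or GSK101 replicate 1 or 2 (0.0517 to 0.0664), and adjusted p over all alternatives ran from 0.00127 to 0.0664.

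Thbs3 was the scarcest of the thrombospondin genes and varied least between replicates, at 10.01, 9.83 and 9.43 RPKM in the controls and 8.88, 9.34 and 8.98 with GSK101. The groups did not overlap, though the lowest control and the highest GSK101 library were close. The log2 fold change of -0.10 (SE 0.05, 95% interval -0.22 to 0.02) did not pass (limma adjusted p = 0.178). Thbs3 passed as lower with quantile normalization (0.0487) and after removal of the gene length trend (0.0260). The gene maps to chromosome 2, 188528979 to 188540736, plus strand. Mtx1, which encodes a mitochondrial import protein, starts 784 bases before it and runs the other way. Mtx1 had 31.3 RPKM in the controls and 29.1 with GSK101, a log2 fold change of -0.10 that did not pass either (adjusted p = 0.0969).

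The 4 thrombospondin genes summed to 1223 ± 105 RPKM in controls and 1095 ± 77.7 after GSK101 (SD, n = 3), with overlap. Within that sum the shares differed. Thbs1 held 88.8% to 90.3% in controls and 85.6% to 87.4% after GSK101, and Thbs4 held 4.26% to 4.94% and 6.05% to 6.98%. These are shares of RPKM and describe transcripts, not protein.

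Tnc encodes tenascin C, an anti-adhesive protein with many arms that appears in tissue under tension or repair and can signal through toll-like receptor 4. It maps to chromosome 5, 79789671 to 79874671, minus strand. Its level was 108, 92.8 and 99.0 RPKM in the controls and 86.6, 89.4 and 87.1 with GSK101. The GSK101 libraries lay close together under all controls, while the controls spread more widely. Tnc fell by 0.19 on the log2 scale (SE 0.06), or by 12.3%, with a limma adjusted p of 0.0422 that is close to the threshold. The call held in 9 of 18 alternatives, with adjusted p from 0.00158 to 0.122. It was lost with no filter, with TPM scaling, without the mean-variance trend, with the replicate block and on leaving out any library but control replicate 2, and the fall grew to 0.38 after removal of the gene length trend.

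Sparc encodes osteonectin, a collagen-binding glycoprotein that is needed for normal fibril assembly and that loosens cell contacts with the matrix. The gene maps to chromosome 10, 40742400 to 40764185, minus strand. It was measured at 4794, 4567 and 4667 RPKM in the controls and 3878, 3949 and 3645 with GSK101, on 323807 to 452052 reads per library. Replicates differed little, and the groups were far apart beside that spread. Sparc fell by 18.2%, by 0.29 on the log2 scale (SE 0.05, limma adjusted p = 0.00438), and had the smallest adjusted p of the 9. It was called lower in 17 of 18 alternatives. The exception was quantile normalization (log2 fold change -0.02, adjusted p = 0.806), which gives genes of equal rank equal values, and Sparc held places 9 and 10.

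Fn1 encodes fibronectin. Fn1 maps to chromosome 9, 78900103 to 78969078, minus strand. Its level was 968, 859 and 836 RPKM in the controls and 1174, 1168 and 951 with GSK101. GSK101 replicates 1 and 2 lay above every control, but replicate 3 was below control replicate 1, so the groups overlapped. Fn1 rose 1.24-fold, a log2 change of 0.30 (SE 0.09), with a limma adjusted p of 0.0400. The call was lost in 8 of 18 alternatives, among them the removal of the gene length trend (log2 fold change 0.08, adjusted p = 0.494) and leaving out control replicate 2 or 3 or GSK101 replicate 1 or 2 (adjusted p 0.110 to 0.125); without GSK101 replicate 3 the log2 fold change was 0.40.

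With 8406 exonic bases Fn1 is the longest of the 9 genes. An unnamed gene on the plus strand, AABR07068042.1, shares 107 of these bases. It had 1239 to 3389 reads per library, against 310239 to 444855 for Fn1, and the labels do not state whether reads were counted by strand. The level of AABR07068042.1 was 98.7, 70.1 and 103 RPKM in the controls and 189, 169 and 138 with GSK101. The part of shared reads in either gene's values was not tested. The table holds 1 value per gene, so the spliced forms of fibronectin were not examined.

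Tgfbi encodes a secreted adhesion protein that was first known as a product induced by TGF-beta. It had the largest fold change and the lowest level of the 9, at 3.70, 3.89 and 2.82 RPKM in the controls and 6.13, 6.74 and 4.47 with GSK101, on 333 to 815 reads per library. The groups did not overlap, and replicate 3 was the lowest library of each group. The macrophage marker Cd68, looked at after its values were seen, was also lowest in replicate 3 of each group, but its groups overlapped. Its level was 6.44, 7.18 and 4.41 RPKM in the controls and 6.84, 6.65 and 3.99 after GSK101. Aif1 and Pf4 of the macrophage and platelet list were lowest in replicate 3 of each group too. Ptprc, Csf1r, Adgre1, Cd14, Tyrobp, Itga2b and Gp9 of that list were not. The part of these cells in the Tgfbi values was not tested. Tgfbi rose 1.66-fold, or by 0.65 on the log2 scale (SE 0.16, limma adjusted p = 0.0163), and maps to chromosome 17, 8400146 to 8429338, minus strand. The call was lost without GSK101 replicate 1 or 2 (adjusted p = 0.0538 and 0.0510), and adjusted p over all alternatives ran from 0.000984 to 0.0538.

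Postn encodes periostin, which is related to the Tgfbi product, supports collagen crosslinking and is typical of periosteum, ligament and other loaded fibrous tissue. It maps to chromosome 2, 143656793 to 143688087, plus strand. Its level was 236, 277 and 283 RPKM in the controls and 263, 279 and 274 with GSK101. The GSK101 libraries lay within the range of the controls. The log2 fold change of 0.04 (SE 0.07, limma adjusted p = 0.698) has a 95% interval from -0.12 to 0.20, and Postn passed in none of the 18 alternatives, while its sign changed without control replicate 1 (log2 fold change -0.04) and once the gene length trend was taken out (-0.05).

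**Figure D2:**
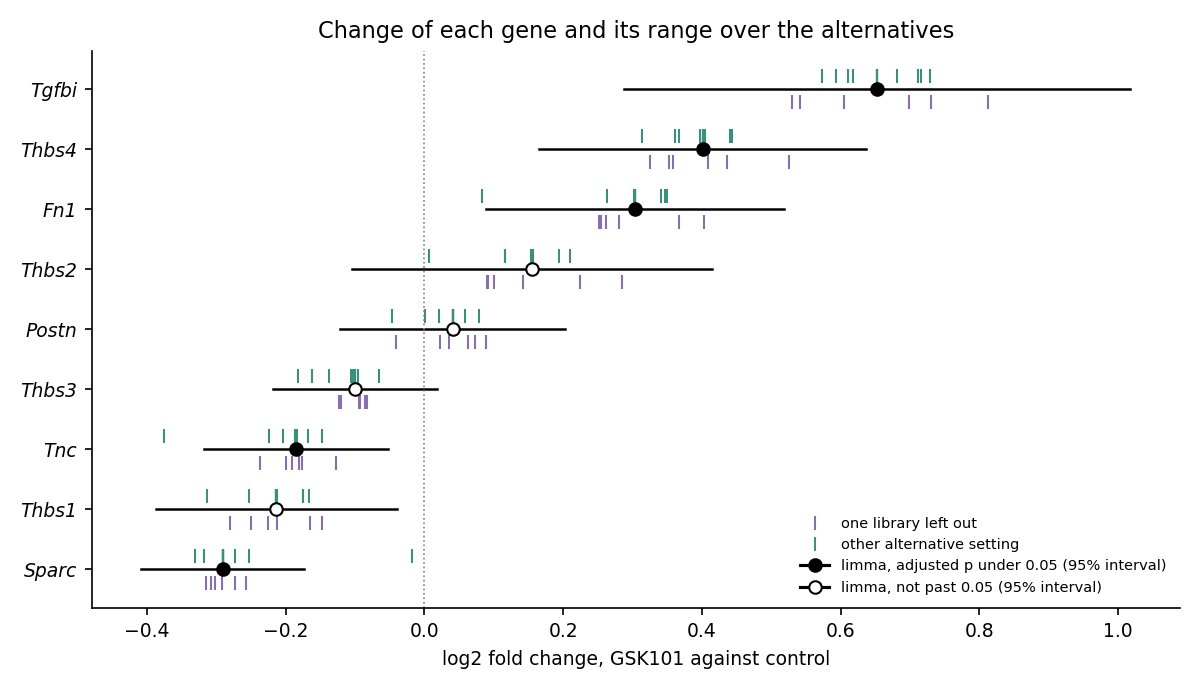
Log2 fold change of each gene with GSK101 against control (x axis), with its 95% interval from limma as a black line, filled points where adjusted p was under 0.05 and open points where it was not. Green ticks above each line are the alternative settings and purple ticks below it the fits with a library left out; every tick keeps the sign of its gene except 2 of Postn, and the single Sparc tick near 0 is quantile normalization.

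In GSK101 replicate 3 the levels of Sparc, Thbs1, Thbs2, Thbs4, Fn1 and Tgfbi were each the lowest of their treated group. The same library had the fewest counted reads, 43061102, which RPKM scales for. The coefficient of variation among GSK101 libraries was 15.0% for Thbs2, 14.6% for Thbs4, 11.6% for Fn1 and 20.3% for Tgfbi, against 1.74% to 6.05% for the other 5 genes.

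Since the scaling between libraries touches both genes of a ratio alike, ratios within a library were also taken. The pairs were chosen after the values had been seen and carry no test. Such a ratio does not cancel a trend with gene length, and Fn1 has 8406 exonic bases, Thbs1 3655 and Sparc 2063. With that trend removed the log2 fold change of Fn1 was 0.08 (limma adjusted p = 0.494). Fn1 stood at 0.202, 0.188 and 0.179 of the Sparc level in the controls and at 0.303, 0.296 and 0.261 with GSK101. Fn1 to Thbs1 went from 0.811 ± 0.050 to 1.16 ± 0.075, so the more abundant of the pair was Thbs1 in every control library and Fn1 in every GSK101 library. Thbs4 to Thbs1 went from 0.0503 ± 0.0046 to 0.0772 ± 0.0069, and Thbs2 to Thbs1 from 0.0560 ± 0.0043 to 0.0724 ± 0.0071. Tnc to Fn1 went from 0.113 ± 0.0054 to 0.0806 ± 0.0096 (SD, n = 3). None of the 5 ratios overlapped between the groups, as was true of 47.3% of single tested genes. The share over all gene pairs was not computed, so for pairs chosen in this way the separation is a description only.

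**Figure D3:**
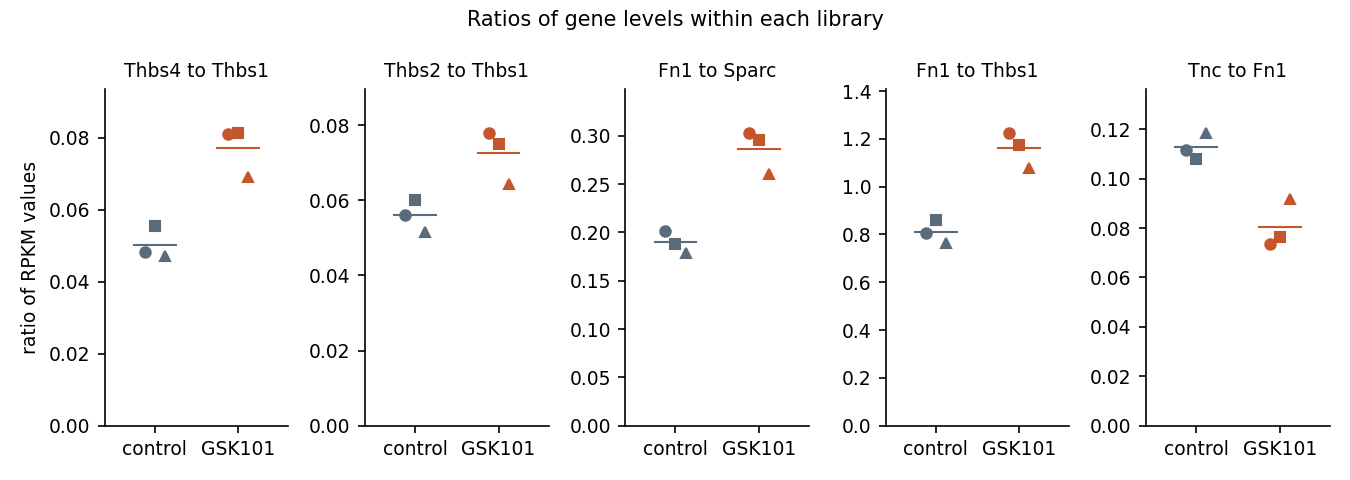
Ratio of the RPKM values of 2 genes within each library (y axis, from 0) for 5 pairs, control in grey and GSK101 in orange, marker shape by replicate number and a bar at each mean. In each panel the 3 GSK101 libraries lie apart from the 3 controls, and GSK101 replicate 3 is the treated library nearest to them.

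Promoter windows were read from RefSeq (GRCr8 build), as the 250 bases before each gene's start, and were found for 7 of the 9 genes, all but Thbs2 and Fn1. The windows were searched on both strands for the AP-1 motif TGANTCA, the TEAD motif GGAATG, the TATA box TATAAA and the CArG box of serum response factor; AP-1 is the family of c-Fos, and TEAD factors bind DNA together with YAP. No AP-1 or CArG match lay in these 7 windows, where 6.34% and 1.50% of all 33469 promoter windows of this length hold one. The TEAD motif lay in Sparc, Thbs1 and Thbs4, 3 of 7, and in 12.1% of all windows. The letters TATAAA lay in Postn, 44 bases before the start, in Tnc, 208 bases before it, and in 12.9% of all windows. The 3 windows with the TEAD letters are shown because they belong to genes that differed in direction, Thbs4 higher, Sparc lower and Thbs1 not past the threshold; the capitals mark GGAATG or its reverse complement CATTCC. They lie at chr10:40038817-40039066 on the minus strand, chr3:125510000-125510249 on the plus strand and chr2:25760346-25760595 on the minus strand of GRCr8. The match starts 33 bases before the start of Sparc, 47 before Thbs1 and 178 before Thbs4. A match of letters is not a bound site.
Sparc: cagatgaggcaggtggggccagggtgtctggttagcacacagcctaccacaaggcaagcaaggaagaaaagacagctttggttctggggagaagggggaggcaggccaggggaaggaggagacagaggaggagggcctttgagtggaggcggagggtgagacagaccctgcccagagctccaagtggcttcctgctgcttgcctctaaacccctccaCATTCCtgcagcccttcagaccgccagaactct
Thbs1: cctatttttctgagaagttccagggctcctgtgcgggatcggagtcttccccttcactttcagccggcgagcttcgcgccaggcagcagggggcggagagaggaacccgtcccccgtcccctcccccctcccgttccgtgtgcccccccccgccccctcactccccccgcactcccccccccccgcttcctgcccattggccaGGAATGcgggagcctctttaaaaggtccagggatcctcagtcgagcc
Thbs4: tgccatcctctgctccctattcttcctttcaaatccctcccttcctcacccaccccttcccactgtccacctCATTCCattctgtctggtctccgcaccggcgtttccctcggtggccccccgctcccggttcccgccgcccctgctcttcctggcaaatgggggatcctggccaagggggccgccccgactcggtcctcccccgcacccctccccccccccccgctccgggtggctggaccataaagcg

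Of 23 other matricellular genes 15 were tested, and 3 rose and 6 fell. The median change of these genes on the log2 scale was -0.11. Over all tested genes 20.1% rose and 11.9% fell, and these shares stand beside the list counts below as well. Spp1, which encodes osteopontin, rose from 109 ± 11.5 to 220.4 ± 19.8 RPKM (SD, n = 3), a log2 fold change of 1.02. Smoc2, a relative of Sparc, rose by 0.55 on the log2 scale, from 11.7 ± 0.76 to 17.2 ± 0.66. Ctgf, a CCN family gene, fell by 0.52 from 1374 ± 51.4 to 958 ± 33.9, and Mfge8, an integrin ligand, fell by 0.43 (limma adjusted p = 0.000272, 0.000683, 0.000325 and 0.000621 in this order). Named after its values were seen, the tenascin gene Tnn rose by 1.05 (adjusted p = 0.00263), from 58.9 ± 7.84 to 124 ± 26.7, whereas its relative Tnc fell. The tenascin genes Tnr and Tnxb and the thrombospondin family gene Comp lay below the filter.

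Receptors and binding partners were split as well, with 8 of 18 tested genes higher and 5 lower and a median log2 fold change of 0.05. Itga4, among the 8 higher genes, had 0.292 RPKM in the controls and 0.636 with GSK101. It passed the filter only through its GSK101 libraries, so the filter itself favoured a rise. With the filter at RPKM 1 the count of higher genes was 7. Sdc4, the syndecan that binds fibronectin alongside integrins, rose by 0.97 from 41.9 ± 3.53 to 82.4 ± 3.55 RPKM (limma adjusted p = 0.000110). Sdc2 and Sdc3, other syndecans, fell by 0.44 and 0.34, and Itgb1, the integrin beta 1 subunit gene, fell by 0.31 from 612 ± 13.0 to 492 ± 6.60 (adjusted p = 0.000190, 0.00243 and 0.000962). The thrombospondin receptor gene Cd47, named after its values were seen, had 15.4 and 14.7 RPKM and did not pass (adjusted p = 0.386). Cd36, named in the same way, was below the filter at 0.159 and 0.277 RPKM. The count of higher genes fell to 3 without GSK101 replicate 2 and to 4 without GSK101 replicate 1 or with the gene length trend removed, and that of lower genes to 3 without control replicate 1, GSK101 replicate 1 or GSK101 replicate 3.

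Of 20 tested TGF-beta ligands, latency proteins and receptors 7 rose and 6 fell, with a median of 0.05. Tgfb3, a TGF-beta ligand gene, fell by 0.60 from 586 ± 6.45 to 388 ± 24.0 RPKM (SD, n = 3; limma adjusted p = 0.000249). Ltbp2, of the family of latent TGF-beta binding proteins, and the coreceptor gene Eng fell by 0.44 and 0.35, and the coreceptor gene Tgfbr3 rose by 0.62 (adjusted p = 0.00136, 0.00835 and 0.00705). The number that rose dropped to 1 without GSK101 replicate 1, to 2 without GSK101 replicate 2 and to 4 without control replicate 3.

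Among 18 tested enzymes that crosslink or process matrix 3 rose and 7 fell, with a median of -0.16. The lysyl oxidase gene Lox rose by 0.47, from 105 ± 3.05 to 146 ± 10.9 RPKM, and its relative Loxl1 fell by 0.47, from 88.3 ± 2.81 to 63.6 ± 3.57 (SD, n = 3; limma adjusted p = 0.00107 and 0.000659). Tll1 and Pcolce, which encode a procollagen protease and an enhancer of procollagen cleavage, fell by 0.41 and 0.29 (adjusted p = 0.00172 and 0.00283).

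**Figure D4:**
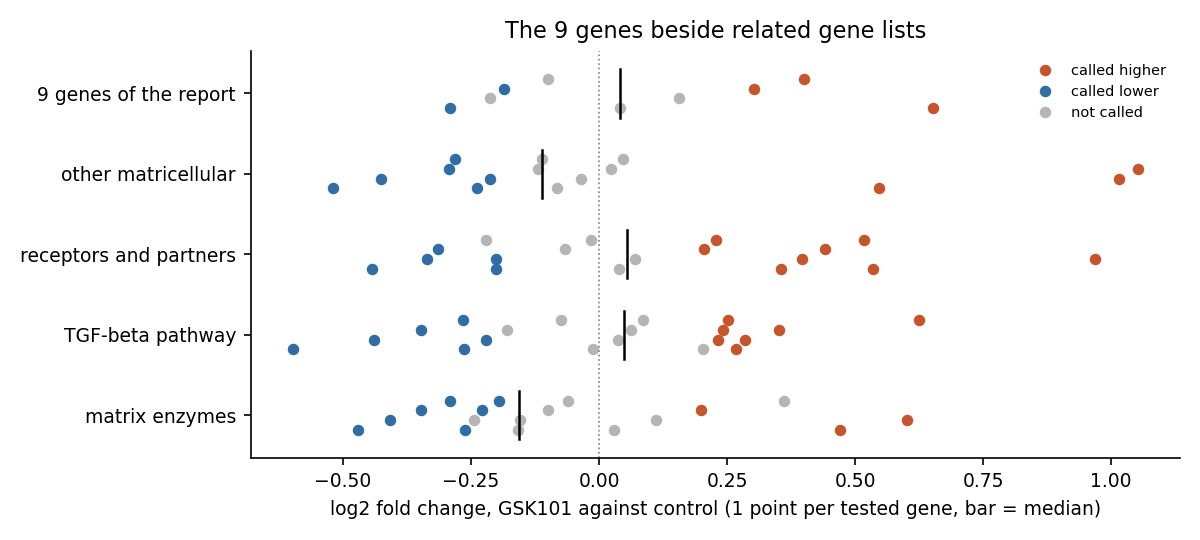
Log2 fold change with GSK101 against control (x axis) of each tested gene of the 9 and of 4 related lists, orange for called higher, blue for called lower and grey for not called, with a black bar at each list's median. Each of the 5 rows holds genes on both sides of 0, and the medians lie between -0.16 and 0.05.

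The 3 genes whose log2 levels followed Sparc most closely over the 6 libraries, of 9884 compared, were Lamp1, Loxl1 and Cmtm3, with Pearson r of 0.998, 0.997 and 0.996. These r describe libraries that fall into 2 groups and share their scaling. Lamp1, a lysosomal membrane protein gene, went from 218 ± 3.45 to 182 ± 6.80 RPKM, and Cmtm3 from 16.9 ± 0.30 to 12.3 ± 0.68 (SD, n = 3). In all 4 genes replicate 3 was the lowest GSK101 library and replicate 2 the lowest control.

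Among fibroblast and disc cell markers 4 of 14 tested rose and 3 fell. Prg4, the lubricin gene, and Pdgfra rose by 1.43 and 0.43 on the log2 scale, and Scx, the tendon factor scleraxis, and Thy1 fell by 0.82 and 0.23 (limma adjusted p = 0.00370, 0.00250, 0.000232 and 0.0111). The number that fell was 5 with median-ratio scaling or limma-voom and 8 after removal of the gene length trend, and the number that rose was 2 without GSK101 replicate 2. Myh11, Mcam and Notch3 of the smooth muscle list fell by 0.63, 0.53 and 0.49. The skeletal muscle genes Acta1, Myh3 and Myh4, 3 of 3 tested, fell by 0.65, 0.69 and 0.68 from 12.4, 0.596 and 2.06 RPKM. Myh3, at 0.179 RPKM with GSK101, passed the filter only through its control libraries, so the filter itself favoured a fall. With the filter at RPKM 1 the number that fell was 2. Ckm, Myod1 and Myog of the same list lay below the filter. They had 0.0469, 0.0540 and 0 RPKM in the controls and 0.0161, 0.130 and 0.0107 with GSK101. Of 5 tested macrophage and platelet markers 2 rose, Pf4 from 22.8 ± 2.5 to 32.9 ± 7.45 and Cd14 from 1.88 ± 0.17 to 3.18 ± 0.32 RPKM (SD, n = 3), and the summed level of the list was 30.4 to 39.2 in the controls and 36.8 to 55.4 with GSK101. Kdr, the 1 endothelial marker tested, rose from 0.551 to 1.01 RPKM, with Tek at 0.128 and 0.118. Of Schwann cell and epithelial markers S100b rose by 0.27, and Sox10, Epcam, Cdh1, Krt5 and Krt14 lay below the filter. The part of any of these cells in the values of the 9 genes was not tested.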

How the data were processed

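The authors deposited 1 table of RPKM values for 20675 rat genes in 6 libraries, 3 per group. Per the submitters' processing notes, the tools were edgeR 3.12.1, Subread 1.5.1, featureCounts, STAR 2.5.3a and Trimmomatic 0.36 and the build Rnor_6.0, with no roles given. Per the labels' protocols, polyadenylated RNA was made into stranded libraries with molecular identifiers of 8 bases. No label states whether reads were collapsed by them. The Length column (gene length in bases, among other columns deposited by the authors) gave whole reads back from RPKM for 100% of values, to within 0.01 of a read.

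Genes with RPKM of at least 0.5 in at least 3 libraries (12801) were tested on log2(RPKM + 0.5), a scale that understates changes of low genes, with limma 3.58.1 in R 4.3.3: group as the only term, empirical Bayes with a mean-variance trend, Benjamini-Hochberg adjustment over all tested genes and a threshold of 0.05. "Called", "rose" and "fell" refer to this test. The script was tested on simulated data. The 9 genes, the lists and the alternatives were chosen with earlier results of these data known. Besides the 9, the text names up to 4 called genes per list with the smallest adjusted p, or the 2 most abundant where fewer than 2 were called. Col1a2, Itgam, Ppbp, Pecam1, Myh1 and Pax7 were not analysed here, and some members of the Schwann cell list are not reported here. The 18 alternatives are pseudocounts 0.1 and 1, no filter or a filter at RPKM 1, scaling to TPM, median-ratio scaling, quantile normalization, removal of the gene length trend (loess, span 0.3), no mean-variance trend, array weights, limma-voom on the recovered reads, a replicate block, and 6 fits that each omit 1 library.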

Additional observations from a re-analysis of the deposited data

How the results depend on the processing

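Over the 18 alternatives the calls of Sparc held in 17, of Tgfbi in 16, of Thbs4 in 13, of Fn1 in 10 and of Tnc in 9. Of the 9 genes, 3 were called higher and 2 lower; these counts were 1 and 1 with no filter on low values, where the log2 fold changes of Thbs4 (0.40), Tnc (-0.19) and Fn1 (0.30) kept their size while more genes shared the adjustment and the standard errors changed too (Fn1 from 0.0928 to 0.103, Thbs4 from 0.102 to 0.110). The count of lower genes was 1 with TPM scaling (Tnc -0.15), without the mean-variance trend (Tnc -0.19, Fn1 0.30) and with the replicate block (Tnc -0.19), and 4 with the gene length trend removed (Thbs1 -0.31, Thbs3 -0.18, Fn1 0.0832, Postn reversed at -0.0471). Median-ratio scaling gave Thbs1 -0.25 as a call and Fn1 0.26 as none, quantile normalization Thbs3 -0.16 as a call and Sparc -0.0176 as none, and limma-voom Thbs1 -0.21 as a call. The cause was not tested. With a library left out, the count of higher genes ran from 0 to 4 and that of lower genes from 1 to 3. The log2 fold changes then ran from -0.28 to -0.15 for Thbs1, 0.0895 to 0.29 for Thbs2, 0.32 to 0.53 for Thbs4, -0.24 to -0.13 for Tnc, -0.0413 to 0.0895 for Postn, 0.25 to 0.40 for Fn1 and 0.53 to 0.81 for Tgfbi.

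The number of genes called higher and lower over the whole table was 2570 and 1518, and the share of higher calls ran from 47.3% with the gene length trend removed (48.1% with quantile normalization, 52.7% with median-ratio scaling) to 72.4% with TPM scaling, against 62.9%. The counts of the other lists stayed within 1.5 times in 324 of 360 comparisons. Those that did not were, with no filter, receptors higher (5), TGF-beta genes higher (4), macrophage markers higher (1) and Schwann cell markers higher (0); endothelial markers higher (0) with the filter at RPKM 1; receptors lower (3) with TPM; disc markers lower (5) and Schwann cell markers higher (0) with median-ratio scaling; TGF-beta genes higher (4) and Schwann cell markers higher (0) with quantile normalization; receptors higher (4), TGF-beta genes higher (2) and disc markers lower (8) with the length trend removed; macrophage markers higher (1) and Schwann cell markers higher (0) without the mean-variance trend; disc markers lower (5) and smooth muscle markers higher (1) with limma-voom. With a library left out, receptors ran from 3 to 6 higher and 3 to 5 lower, TGF-beta genes from 1 to 5 higher, disc markers from 2 to 4 higher, macrophage markers from 1 to 2, smooth muscle markers from 0 to 1 and Schwann cell markers from 0 to 1 higher.

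Over all tested genes, same-numbered libraries did not deviate together (correlations 0.05, -0.06 and 0.05). This cannot decide whether the samples were paired, which the labels do not state. The replicate block gave 2508 higher and 1437 lower calls. With it the SE was smaller for Tgfbi (0.0692 against 0.158), Thbs1, Thbs2, Thbs4, Fn1 and Postn, and larger for Sparc, Thbs3 and Tnc. The 3 libraries per group limit what could be called: Thbs1, Thbs2, Thbs3 and Postn have intervals that include changes as large as those called for Tnc.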
